A study of Mus musculus with 6 samples.

Results

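The MHC class II genes were followed through single-cell transcriptomes of the mouse small-intestinal epithelium. The group held 8 genes, taken by symbol out of the 27998 genes in the files: H2-Aa, H2-Ab1, H2-Eb1, H2-DMa, H2-DMb1, H2-DMb2, Cd74 and Ciita. All 8 had at least 1 UMI (a unique molecular identifier, which marks 1 captured RNA molecule). Libraries came from 2 groups of C57BL/6J mice aged 8 weeks, 3 libraries labelled Itgb7 KO with the genotype Itgb7-/- and 3 labelled wild-type, and the cells were epithelial cells of the small intestine per the labels. No other allele, treatment or time point was named. The product of Itgb7, integrin β7, joins with αE on T cells that lie in the epithelium, and the title of the series poses the question whether such T cells direct the fate of intestinal stem cells. How many animals went into a library is not given in the labels, so each p-value measures the spread between these libraries only, and that spread may be technical.

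MHC class II molecules are cell-surface heterodimers of an α and a β chain that present peptides from endosomes to CD4+ T cells. The invariant chain encoded by Cd74 holds newly made dimers and blocks their groove, the H2-DM heterodimer exchanges the leftover invariant chain peptide for other peptides, and Ciita encodes the co-activator without which the genes are hardly transcribed. Professional antigen-presenting cells make them constitutively, while the intestinal epithelium makes them in response to interferon-gamma, a cytokine of T cells and innate lymphoid cells. Lgr5+ intestinal stem cells are known to carry MHC class II.

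Of the 8 genes, 6 form a cluster on chromosome 17 (mm10). H2-DMa lay at chr17:34119541-34139101, H2-DMb2 at chr17:34143307-34151555, H2-DMb1 at chr17:34153072-34160230, H2-Ab1 at chr17:34257689-34269419 and H2-Eb1 at chr17:34305867-34316674, all on the plus strand. H2-Aa lay at chr17:34282744-34287823 on the minus strand. Ciita and Cd74 lie on other chromosomes. The Ciita protein does not bind DNA itself but docks on factors at the X and Y boxes of these promoters, so the promoters are shown. They run from 250 bases before to 50 bases after the start, 5′ to 3′ on the strand of the gene, from RefSeq on GRCm38.p6. Capitals mark the Y-box core CCAAT and a 5-base X-box core, GCAAC, each searched on both strands, where the reverse complements read ATTGG and GTTGC. The RefSeq promoter table matched 5 of the 8 genes and H2-Ab1, Cd74 and Ciita were not among them.
H2-Aa, chr17:34287774-34288073, minus strand: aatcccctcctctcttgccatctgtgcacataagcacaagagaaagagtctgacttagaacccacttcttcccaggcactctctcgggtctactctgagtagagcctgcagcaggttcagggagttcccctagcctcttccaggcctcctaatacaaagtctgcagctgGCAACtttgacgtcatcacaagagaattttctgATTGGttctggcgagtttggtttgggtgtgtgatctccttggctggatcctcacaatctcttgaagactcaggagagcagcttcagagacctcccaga
H2-Eb1, chr17:34305617-34305916, plus strand: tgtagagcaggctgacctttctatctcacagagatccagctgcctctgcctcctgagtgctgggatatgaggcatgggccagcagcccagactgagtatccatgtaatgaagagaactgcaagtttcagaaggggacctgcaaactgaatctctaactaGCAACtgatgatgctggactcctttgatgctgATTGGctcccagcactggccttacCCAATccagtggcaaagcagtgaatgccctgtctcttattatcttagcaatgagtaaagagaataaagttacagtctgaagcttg
H2-DMb1, chr17:34152941-34153240, plus strand: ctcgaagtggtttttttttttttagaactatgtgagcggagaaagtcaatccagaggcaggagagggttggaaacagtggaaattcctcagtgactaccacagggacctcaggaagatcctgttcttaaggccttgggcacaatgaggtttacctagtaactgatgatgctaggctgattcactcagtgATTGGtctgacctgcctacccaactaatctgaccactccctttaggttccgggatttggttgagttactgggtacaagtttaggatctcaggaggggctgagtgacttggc
H2-DMb2, chr17:34144999-34145298, plus strand: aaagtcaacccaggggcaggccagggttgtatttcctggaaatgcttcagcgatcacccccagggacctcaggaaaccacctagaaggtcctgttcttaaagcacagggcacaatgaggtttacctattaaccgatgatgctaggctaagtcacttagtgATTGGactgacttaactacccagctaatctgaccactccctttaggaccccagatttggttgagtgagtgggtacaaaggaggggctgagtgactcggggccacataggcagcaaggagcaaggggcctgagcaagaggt
In H2-Aa the X core began at position -81 and the Y core at -48 relative to the start. In H2-Eb1 the X core began at -91 and Y cores at -59 and -35. H2-DMb1 and H2-DMb2 each held 1 Y core, at -61 and -90, and no match to these 5 letters of the X core. The pair, an X core 10 to 40 bases before a Y core, was held by 2.26% of 32851 promoters of the same length, against 37.4% for the Y core alone and 35.2% for the X core alone. H2-DMa had 2 listed promoters, one with an X core at -7 and the other with a Y core at -198, and neither held the pair. A match is only a run of letters and was not tested as a binding site.

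Barcodes numbered 2797, 5738 and 4642 in replicates 1, 2 and 3 labelled Itgb7 KO and 2773, 5058 and 5145 in wild-type replicates 1, 2 and 3, the order in which values of single libraries are given throughout. Total UMIs ranged over 28475253 to 62224718 in libraries labelled Itgb7 KO and 63316811 to 76133693 in wild-type libraries. Replicate 1 of both genotypes was the deepest, with medians of 19529 and 22384 UMIs per barcode, against 6080 to 12103 in the other 4 libraries, and its lowest barcode held 7754 and 13621 UMIs, against 1417 to 2946. By the serial numbers in their names, replicates 1 of both genotypes were neighbours and replicates 2 and 3 followed later, wild-type replicate 3 last. Pairs of libraries shared 12 to 42 barcodes, against 10.52 to 40.04 from chance. Of 26153 barcodes, 26136 carried at least 3 of 6 epithelial markers. Filtering and removal of likely doublets left 25076 cells, of which 24592 fell into 8 epithelial classes, clustered without the MHC class II genes and named from markers, and 484 stayed unnamed. Itgb7 itself went against the labels, with 16, 26 and 10 UMIs in epithelial cells of the libraries labelled Itgb7 KO and 3, 4 and 1 in wild-type libraries, at 0.380 ± 0.113 and 0.0419 ± 0.0256 CPM (counts per 1000000 UMIs, mean ± SD over 3 libraries each; p = 0.1 in an exact 2-sided permutation test). A 3′ read outside the deleted part of a gene checks nothing, and the deleted part is not given in the sources used here. Directions below therefore rest on the labels alone.

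Markers of professional antigen-presenting cells were nearly absent. Of 9 dendritic cell markers, 5 (Itgax, Flt3, Clec9a, Cd209a and Clec10a) had 0 UMIs in all barcodes, and the summed list stood at 0.138 to 0.211 CPM in libraries labelled Itgb7 KO and 0.158 to 0.190 CPM in wild-type libraries. The 11 macrophage markers, of which C1qc and Fcgr1 were at 0, summed to 3.11 to 6.22 CPM in libraries labelled Itgb7 KO and 4.28 to 7.09 CPM in wild-type libraries. The 6 of 9 B cell markers that the files list summed to 1.40 to 2.25 CPM in libraries labelled Itgb7 KO and 1.70 to 1.88 CPM in wild-type libraries. T cell markers, 12 of 16 in the files, summed to 0.224 to 0.527 CPM in libraries labelled Itgb7 KO and 0.553 to 3.13 CPM in wild-type libraries. The 6 general leukocyte markers summed to 0.211 to 0.708 CPM in libraries labelled Itgb7 KO and 0.221 to 0.683 CPM in wild-type libraries. No barcode carried 3 or more markers of dendritic cells, macrophages, B cells or leukocytes, and 1 barcode did so for T cells. Ranges of the antigen-presenting lists overlapped between the genotypes. Each list lay under Cd74 and H2-Ab1 in every library. In wild-type replicate 2 the macrophage list, at 4.28 CPM, lay above H2-Aa, at 2.25 CPM, and H2-DMb1, at 2.26 CPM, and near H2-Eb1, at 5.73 CPM. The macrophage and B cell lists lay above Ciita, at 0.272 to 1.196 CPM, and above H2-DMb2 in every library. The T cell list did not overlap and was lower in every library labelled Itgb7 KO, though 0.527 and 0.553 CPM lay close. The highest T cell value was that of wild-type replicate 1. The cause of this difference was not tested.

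In the epithelium as a whole, 7 of the 8 MHC class II genes were higher in every library labelled Itgb7 KO than in every wild-type library, but no single gene passed the test. Summed over the 8 genes, the level was 943, 842 and 797 CPM in libraries labelled Itgb7 KO, against 404, 92.0 and 287 CPM in wild-type libraries. Wild-type replicate 2 was the lowest library by far. Across the whole table, 2.57% of 13550 genes were likewise higher in every library labelled Itgb7 KO. edgeR's quasi-likelihood test with Benjamini-Hochberg adjustment called 0 of the 7 tested members at 0.05, with an adjusted p of 0.949 for each, against 0.00738% of all genes (1 gene; 3 genes with the replicate number as a block). All 7 had an unadjusted p under 0.05, as did 412 of the 13550 genes. DESeq2 also called 0 of the members (0.17% of the 15911 genes to which it gave an adjusted p), with 7 at an unadjusted p under 0.05. The median log2 fold change of the members was 1.42, against -0.01 over all genes tested. All 7 members had a positive fold change, against 48.7% of all genes, and 6 had a log2 fold change above 1, against 1.3% of all genes.

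The classical chains form the peptide-binding dimers, I-A from H2-Aa and H2-Ab1 and I-E from H2-Eb1 with an α chain that C57BL/6 mice do not make. H2-Ab1, the I-A β chain, stood at 179, 138 and 118 CPM in libraries labelled Itgb7 KO, against 77.0, 24.4 and 60.9 CPM in wild-type libraries. The lowest library labelled Itgb7 KO lay above the highest wild-type library, at 145 ± 31.2 against 54.1 ± 27.0 CPM (mean ± SD, n = 3 each), and the log2 fold change was 1.36 ± 0.46 (SE). H2-Aa, the I-A α chain, stood at 55.3, 26.4 and 27.6 CPM in libraries labelled Itgb7 KO, against 16.6, 2.25 and 8.55 CPM in wild-type libraries. Replicate 1 was the highest library of each genotype, the groups did not overlap, and the log2 fold change was 1.92 ± 0.72. H2-Eb1, the I-E β chain, stood at 79.6, 50.8 and 46.4 CPM in libraries labelled Itgb7 KO, against 31.8, 5.73 and 19.2 CPM in wild-type libraries. Its order over libraries was that of H2-Ab1 and the log2 fold change was 1.56 ± 0.61.

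Cd74, the invariant chain, encoded at chr18:60803848-60812652 on the plus strand, was the most abundant of the 8 transcripts on this scale of 3′ UMIs. It stood at 569.9, 576 and 549.9 CPM in libraries labelled Itgb7 KO, against 248, 47.6 and 174 CPM in wild-type libraries. The libraries labelled Itgb7 KO lay close together, with an SD of 13.5 CPM, while the wild-type libraries were spread over an SD of 101.1 CPM, and the log2 fold change was 1.76 ± 0.56. Within the 2 groups of serial numbers, replicate 1 labelled Itgb7 KO over wild-type replicate 1 gave a log2 ratio of 1.203, and the mean of replicates 2 and 3 labelled Itgb7 KO over the mean of wild-type replicates 2 and 3 gave 2.34 (3.56 over wild-type replicate 2 alone). H2-Ab1 gave 1.22 and 1.59 and H2-Aa 1.74 and 2.32 in the same way. Each ratio was positive, and the first group holds 1 library per genotype, so no test within it was possible. Without wild-type replicate 2, log2 fold changes in all epithelial cells were 1.44 for H2-Aa, 0.98 for H2-Ab1, 1.11 for H2-Eb1, 1.31 for Cd74, 0.87 for H2-DMa, 1.03 for H2-DMb1 and 0.64 for Ciita, all still positive and none called. With cells that carried a leukocyte marker left out, Cd74 was higher by 416 CPM in libraries labelled Itgb7 KO than in wild-type libraries, against 409 CPM with all epithelial cells.

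The peptide-loading chains were lower than the invariant chain in every library. H2-DMa stood at 41.5, 37.3 and 38.2 CPM in libraries labelled Itgb7 KO, against 22.0, 9.56 and 17.7 CPM in wild-type libraries, with a log2 fold change of 1.18 ± 0.34. H2-DMb1, its β partner, stood at 17.3, 12.4 and 15.5 CPM in libraries labelled Itgb7 KO, against 8.10, 2.26 and 5.66 CPM in wild-type libraries, with a log2 fold change of 1.42 ± 0.48. Neither gene overlapped between genotypes. H2-DMa overlaps Brd2, a gene of 33157 UMIs on the opposite strand, and H2-Eb1 overlaps Gm20513, an antisense gene of 23 UMIs. The use of strand in the counting is not given in the sources used here, so such reads cannot be told apart. H2-DMb2, the second β gene, had 5 UMIs in all barcodes against 3369 for H2-DMb1, and among epithelial cells it was seen in 2 cells of replicate 2 labelled Itgb7 KO and 2 cells of wild-type replicate 3. Its count of 0 allows, at a limit of 3 counts, a UMI of it in up to 0.112% of the 2675 cells of replicate 1 labelled Itgb7 KO and in up to 0.111% of the 2696 cells of wild-type replicate 1. This limits the cells with a UMI, not the cells that express the gene. The transcripts of the H2-DMb pair were 94.6% identical over 1219 aligned bases and 70.1% over their last 400 bases, so how reads were split between them is uncertain.

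Ciita, the master co-activator, encoded at chr16:10480059-10528418 on the plus strand, was at the edge of detection. It had 42, 63 and 29 UMIs in epithelial cells of libraries labelled Itgb7 KO, against 46, 16 and 32 in wild-type libraries, which is 0.705, 1.196 and 1.09 CPM against 0.628, 0.272 and 0.538 CPM. The CPM did not overlap, and the log2 fold change was 0.96 ± 0.40 (edgeR, adjusted p = 0.949). Unthinned, cells with a Ciita UMI made up 1.46% (exact 95% interval 1.04% to 1.99%), 1.16% (0.891% to 1.49%) and 0.680% (0.456% to 0.975%) in libraries labelled Itgb7 KO. The shares were 1.63% (1.19% to 2.18%), 0.312% (0.175% to 0.515%) and 0.665% (0.455% to 0.938%) in wild-type libraries. These shares overlapped between genotypes and were highest in replicate 1, the deepest library, of both, and the intervals cover counting error only. Ciita overlaps Dexi, a gene of 5071 UMIs on the opposite strand.

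**Figure D1:**
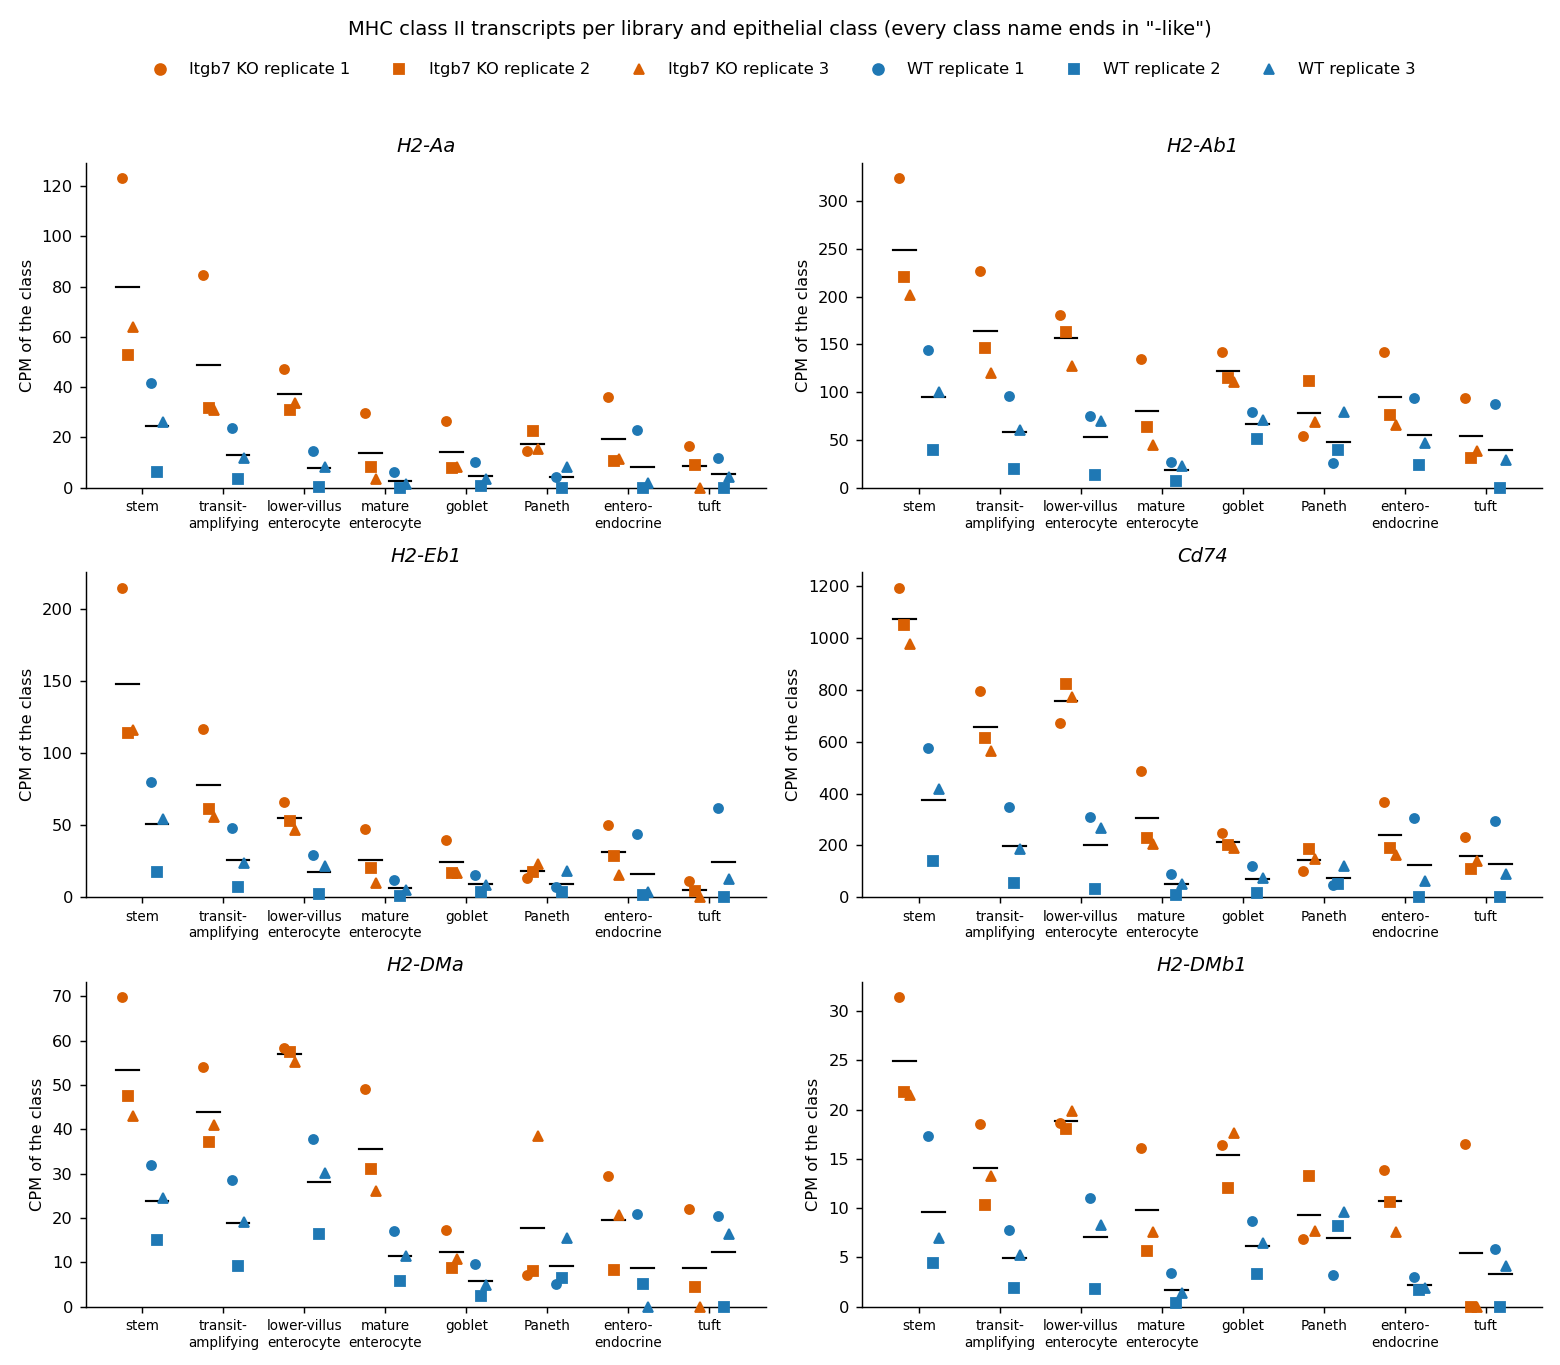
Level of 6 MHC class II genes (vertical axis, CPM of the class, linear) in 8 epithelial classes (horizontal axis), with 1 point per library (orange, Itgb7 KO; blue, WT; marker shape, replicate) and black lines at group means. For Cd74 the stem-like libraries labelled Itgb7 KO sit between 975 and 1193 CPM and the wild-type libraries between 138 and 574 CPM.

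Along the crypt and villus the genes were graded, with the stem-like class first for most of them. The classes were built without these genes, so their levels across classes did not enter the clustering, and they are described per library without a test because all classes of a library share its cells. The order covers the 6 classes with at least 20 cells in every library. The transit-amplifying-like class held a cluster of 1624 cells with Ascl2 and Lgr5 among its first 10 genes. Its first 50 genes held 9 stem and 9 transit-amplifying markers, so the line between these classes is uncertain. Similar clusters were named stem-like with doublets kept, with the MHC class II genes kept for clustering and with no correction for library. The lower-villus enterocyte-like class held a cluster of 1392 cells led by Spink1 and Reg3a. Its first 50 genes held 4 markers of its own class and 10 of mature enterocytes. Clusters like it were named mature enterocyte-like with doublets kept and with no correction for library, so that line is uncertain too. The stem-like class had the highest level in 6 of 6 libraries for H2-Aa, H2-Eb1, Cd74 and Ciita and in 5 of 6 for H2-Ab1 and H2-DMb1. H2-DMa was highest in lower-villus enterocyte-like cells in 5 of 6 libraries and in stem-like cells in 1. For H2-Ab1, goblet-like cells were first in 1 library, wild-type replicate 2.

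Averaged over the 6 libraries, Cd74 stood at 725 CPM in stem-like cells, with an SD of 412 CPM over the libraries of both genotypes. It followed at 479.5 CPM in lower-villus enterocyte-like, 428 in transit-amplifying-like, 181 in enteroendocrine-like, 178 in mature enterocyte-like and 142 CPM in goblet-like cells. Stem-like cells lay above the lower-villus class in 6 of 6 libraries, and the lower-villus class above the transit-amplifying class in 3 of 6, so those neighbours were not separated. Enteroendocrine-like cells lay above mature enterocyte-like cells in 2 of 6 libraries and mature above goblet-like cells in 3 of 6. H2-Aa was more steeply graded on the same scale, at 52.3 CPM (stem-like), 31.0 (transit-amplifying-like), 22.6 (lower-villus), 13.8 (enteroendocrine-like), 9.52 (goblet-like) and 8.23 CPM (mature enterocyte-like). H2-Ab1 had a flatter course, from 172 CPM in stem-like cells and 111 in transit-amplifying-like to 105, 94.6, 74.7 and 49.8 CPM in lower-villus, goblet-like, enteroendocrine-like and mature enterocyte-like cells. H2-DMa was the exception in order, at 42.5 CPM in lower-villus cells and 38.6 CPM in stem-like cells.

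Levels also varied among the clusters within a class. The stem-like class held a cluster of 479 cells led by Bex1, Bex4, Lgr5 and Ascl2, which had H2-Aa among its first 10 genes although the gene was kept out of the clustering. There Cd74 stood at 1465, 2777 and 2334 CPM in libraries labelled Itgb7 KO, against 835, 277 and 827 CPM in wild-type libraries. In the other stem-like cluster, of 1648 cells led by Gkn3, Cd74 stood at 1109, 867 and 804 CPM in libraries labelled Itgb7 KO, against 424, 83.1 and 237 CPM in wild-type libraries. The smaller cluster was the higher in all 6 libraries. In lower-villus enterocyte-like cells, a cluster of 1344 cells led by Fabp6 held 801, 1438 and 1607 CPM of Cd74 in libraries labelled Itgb7 KO and 446, 62.7 and 424 CPM in wild-type libraries. A cluster of 1186 cells of the same class led by Slc40a1, which had as many markers of mature enterocytes as of its own class among its first 10 genes, held 593, 172 and 187 CPM in libraries labelled Itgb7 KO and 46.7, 7.07 and 52.0 CPM in wild-type libraries. Fabp6 is known as an ileal bile acid binding protein.

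Within the stem-like class, all 6 tested members were higher in every library labelled Itgb7 KO than in every wild-type library, against 3.67% of 10047 genes. H2-Ab1 stood at 324, 220.4 and 202 CPM in stem-like cells labelled Itgb7 KO, against 144, 39.2 and 100.6 CPM in wild-type cells. H2-Aa stood at 123, 52.6 and 64.1 CPM in cells labelled Itgb7 KO, against 41.5, 6.16 and 26.2 CPM in wild-type cells. Cd74 stood at 1193, 1050.0 and 975 CPM in cells labelled Itgb7 KO, against 574, 138 and 416 CPM in wild-type cells. Replicate 1 was highest and wild-type replicate 2 lowest for each of these genes, and the groups did not overlap. log2 fold changes were 1.69 ± 0.59 for H2-Aa, 1.36 ± 0.43 for H2-Ab1, 1.53 ± 0.51 for H2-Eb1, 1.15 ± 0.31 for H2-DMa, 1.34 ± 0.46 for H2-DMb1 and 1.47 ± 0.44 for Cd74. edgeR called 0 of the 6 (adjusted p = 0.956 for each), while 6 had an unadjusted p under 0.05 (283 of all 10047 genes did). DESeq2 called 0 (0.00631% of its genes), with 7 of the members it tested at an unadjusted p under 0.05. Over the table edgeR called 0.00995% of genes, 1 gene, and 0.299% had a log2 fold change above 1, as all 6 members did. All 6 fold changes were positive, against 50.7% of genes. Ciita was too low to be tested in this class and stood at 2.50, 3.93 and 3.58 CPM in cells labelled Itgb7 KO, against 2.01, 0.934 and 0.779 CPM in wild-type cells.

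The same direction held in the other classes of the crypt and villus. Of the members tested, 6 of 7 in transit-amplifying-like cells and 6 of 6 in lower-villus enterocyte-like cells were higher in every library labelled Itgb7 KO, against 2.94% and 3.25% of the genes tested. In mature enterocyte-like cells it was 4 of 6, against 2.75% of the genes tested, and in goblet-like cells 4 of 6, against 2.63%. edgeR called 0 members in each of these 4 classes, where 6, 6, 6 and 5 members had an unadjusted p under 0.05. DESeq2 called 0 (0.0616%, 0.124%, 0% and 0.0961% of its genes), where 5, 4, 5 and 5 had one. Over all genes edgeR called 0%, 0.00915%, 0% and 0.00899%, while a block on the replicate number gave 1 gene in transit-amplifying-like and 2 in lower-villus enterocyte-like cells. The median log2 fold change of the members was 1.48 (transit-amplifying-like), 1.59 (lower-villus), 2.36 (mature) and 1.36 (goblet-like), with an all-gene median of 0.00 in each class. All tested members had a positive fold change in the 4 classes, against 50.5%, 50.8%, 49.8% and 50.3% of the genes tested. A log2 fold change above 1 was seen for 6, 6, 6 and 5 members, against 0.525%, 0.696%, 0.598% and 0.629% of the genes tested.

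Mature enterocytes, which absorb nutrients at the villus, had low levels and wide fold changes. Cd74 stood at 488, 228 and 204 CPM in mature enterocyte-like cells labelled Itgb7 KO, against 89.0, 7.99 and 53.0 CPM in wild-type cells, a log2 fold change of 2.61 ± 0.75. H2-Ab1 stood at 135, 63.5 and 44.2 CPM in cells labelled Itgb7 KO, against 27.2, 6.72 and 22.5 CPM in wild-type cells, a log2 fold change of 2.13 ± 0.56. Both genes were separated between genotypes, while H2-Aa, at 13.8 ± 13.9 against 2.63 ± 3.27 CPM, and H2-Eb1, at 25.8 ± 19.6 against 6.06 ± 5.37 CPM, overlapped. The difference between the genotype effects in stem-like and mature enterocyte-like cells was tested in 1 edgeR fit with library as a term. It was -1.21 ± 0.27 (log2) for Cd74, whose effect was thus the smaller in stem-like cells, -0.69 ± 0.20 for H2-Ab1 and -1.11 ± 0.37 for H2-DMb1, and it was negative for 6 of 7 members, against 48.5% of genes. No gene of 10897 was called, 0%, with 490 at an unadjusted p under 0.05, and Cd74 had an adjusted p of 0.514 in edgeR. Cd74 passed with cells of at least 6000 UMIs, at -1.51 and an adjusted p of 0.0495 in edgeR. With no filter on low counts edgeR printed an adjusted p of 5.34e-19 for Cd74, which cannot be read as a call, because that fit put no weight on the spread of single genes and used 0.741 for Cd74, whose own spread (deviance per residual degree of freedom) was 9.57. With edgeR's robust spread, chosen after seeing the data, the unadjusted p of Cd74 was 0.0562 with the filter and 0.0507 without it. Over all these alternatives other than the fit without a filter, its adjusted p in edgeR ranged from 0.0495 to 1.

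Goblet cells, which secrete mucus, differed in the balance of the genes. H2-Ab1 stood at 142, 114 and 111 CPM in goblet-like cells labelled Itgb7 KO, against 79.2, 50.6 and 70.5 CPM in wild-type cells. Cd74 stood at 248, 201 and 192 CPM in cells labelled Itgb7 KO, against 122, 17.9 and 74.4 CPM in wild-type cells. The groups did not overlap for either gene, and wild-type replicate 2 was low in Cd74 but not far from the other wild-type libraries in H2-Ab1. log2 fold changes were 0.88 ± 0.21 for H2-Ab1 and 1.57 ± 0.57 for Cd74. The ratio of Cd74 to H2-Ab1 UMIs was 1.75, 1.76 and 1.73 in goblet-like cells labelled Itgb7 KO and 1.54, 0.355 and 1.06 in wild-type cells. In stem-like cells it was 3.69, 4.76 and 4.84 in libraries labelled Itgb7 KO and 3.98, 3.53 and 4.13 in wild-type libraries. Goblet-like cells were thus below stem-like cells in 6 of 6 libraries. Between genotypes the ratio did not overlap in goblet-like cells or in mature enterocyte-like cells, at 3.63, 3.60 and 4.62 in libraries labelled Itgb7 KO and 3.28, 1.19 and 2.36 in wild-type libraries (exact 2-sided permutation test, p = 0.1, no smaller p being possible with 3 libraries a group). In stem-like cells it overlapped. Goblet-like clusters were split by library, with 2064 cells of one mostly in replicate 3 labelled Itgb7 KO and wild-type replicates 2 and 3, and 1273 cells of another mostly in replicates 1 and 2 labelled Itgb7 KO and wild-type replicate 1. A goblet-like cluster of 1052 cells led by Dll1 and Atoh1, genes of secretory progenitors, held 449, 383 and 426 CPM of Cd74 in libraries labelled Itgb7 KO and 229, 36.4 and 148 CPM in wild-type libraries.

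Rare classes gave fewer values. In enteroendocrine-like cells, the hormone-producing cells, 4 members could be tested, 0 of them were separated between genotypes (2.57% of 7163 genes were higher in every library labelled Itgb7 KO), and 0 were called by edgeR (0% of all genes; 1 gene with the replicate number as a block) or DESeq2 (0% of its genes), with 0 and 1 of them under an unadjusted p of 0.05. All 4 had a positive fold change (48.2% of genes did) and 0 had one above 1 on the log2 scale (0.67% did). Cd74 stood at 368, 188 and 164 CPM in enteroendocrine-like cells labelled Itgb7 KO, against 304, 1.73 and 61.2 CPM in wild-type cells. Wild-type replicate 1 lay within the range of the libraries labelled Itgb7 KO, and the log2 fold change was 0.77 ± 1.06. On leaving out 1 library it ranged from 0.18, without replicate 1 labelled Itgb7 KO, to 3.07, without wild-type replicate 1, and it was 0.21 without wild-type replicate 2 and 0.42 without wild-type replicate 3. H2-Eb1 had 0.65 ± 0.91 in this class and -0.020 without replicate 1 labelled Itgb7 KO. Paneth-like cells, which secrete antimicrobial peptides, held 99.5, 184 and 146 CPM of Cd74 in libraries labelled Itgb7 KO, against 48.1, 51.0 and 121 CPM in wild-type libraries, with as few as 19 cells in a library, and the groups overlapped. Tuft-like cells, 12 to 32 per library, held 231, 107 and 140.0 CPM of Cd74 in libraries labelled Itgb7 KO, against 294, 0 and 90.4 CPM in wild-type libraries. The groups overlapped, and neither class was tested.

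**Figure D2:**
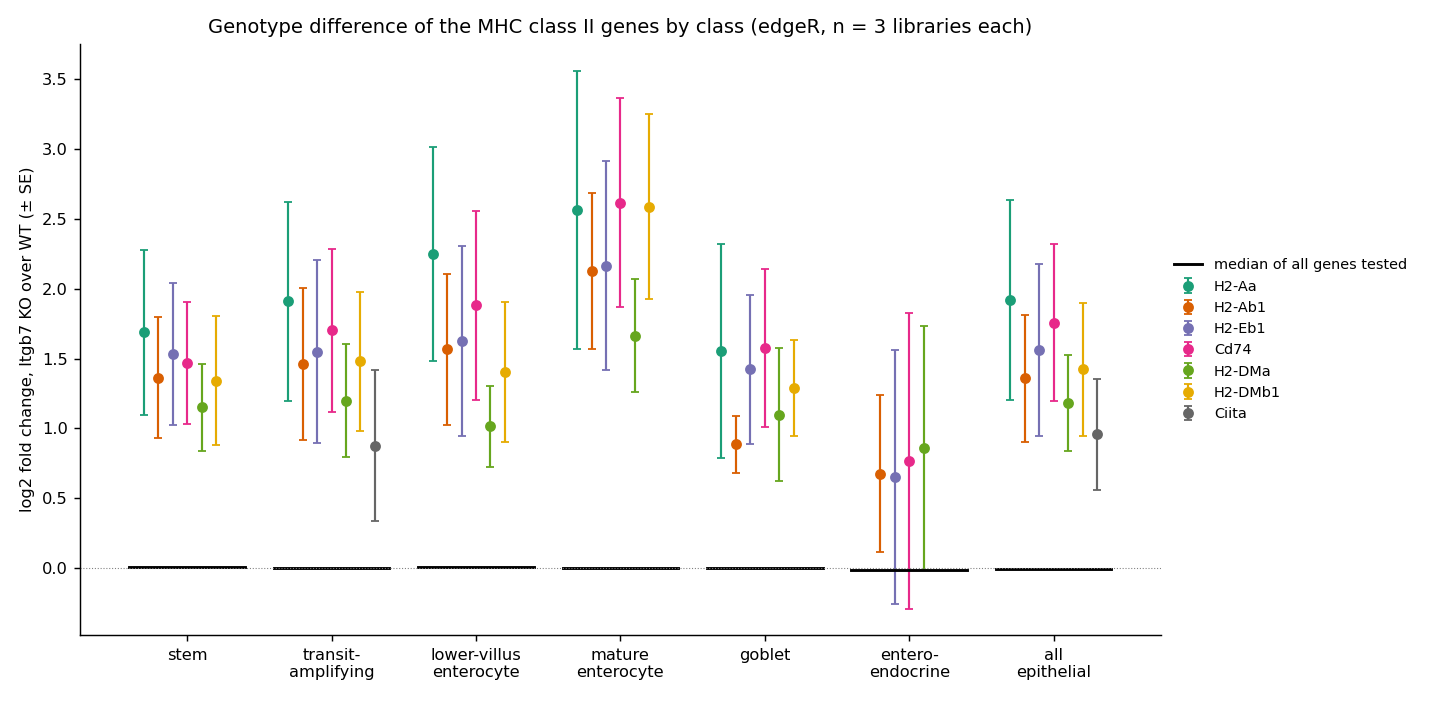
log2 fold change, libraries labelled Itgb7 KO over wild-type, of each tested MHC class II gene (points, bars are ± 1 SE, edgeR, n = 3 libraries each) in 6 classes, whose names all end in -like, and in all epithelial cells. Black lines mark the median of all genes tested. Every point lies above 0, from 0.65 for H2-Eb1 in enteroendocrine-like cells to 2.61 for Cd74 in mature enterocyte-like cells.

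A level can also be described by the share of cells in which a transcript was detected and by the UMIs in those cells. For this, every epithelial cell was thinned to 3000 UMIs, which left out 0, 30 and 215 cells of the libraries labelled Itgb7 KO and 0, 0 and 24 of the wild-type libraries. Cells with a Cd74 UMI then made up 62.4%, 50.6% and 51.4% in libraries labelled Itgb7 KO, against 34.5%, 8.66% and 25.7% in wild-type libraries. Such cells held on average 2.84, 3.58 and 3.33 Cd74 UMIs in libraries labelled Itgb7 KO, against 2.31, 1.72 and 2.102 in wild-type libraries. Both the share and the amount per such cell were thus higher in every library labelled Itgb7 KO. Both rise with the level per cell, so they cannot tell more cells with the transcript from more of it in each cell. Unthinned, the Cd74 shares were 91.0%, 69.8% and 64.1% in libraries labelled Itgb7 KO, against 73.7%, 18.4% and 50.7% in wild-type libraries, and overlapped.

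Cells with an H2-Ab1 UMI made up 37.3%, 28.4% and 24.6% in libraries labelled Itgb7 KO, against 18.7%, 6.71% and 14.96% in wild-type libraries, with 1.48 ± 0.0362 UMIs per such cell in libraries labelled Itgb7 KO and 1.22 ± 0.0724 in wild-type libraries. Mean shares were 8.84% against 2.42% for H2-Aa, 14.3% against 4.98% for H2-Eb1, 10.6% against 4.67% for H2-DMa, 4.71% against 1.77% for H2-DMb1 and 0.301% against 0.131% for Ciita, libraries labelled Itgb7 KO against wild-type. For these 7 genes the groups did not overlap, at p = 0.1 for each and 0.114 after Benjamini-Hochberg adjustment over the 8 genes (exact 2-sided permutation tests over libraries). For Ciita this rested on 6, 19 and 13 cells in libraries labelled Itgb7 KO and 5, 1 and 9 cells in wild-type libraries. In stem-like cells, Cd74 was seen in 88.7%, 64.8% and 70.7% of cells in libraries labelled Itgb7 KO and in 54.8%, 25.05% and 46.1% in wild-type libraries. Free RNA in droplets can give a share in any cell. No class was taken as one that lacks these genes, so the lowest share of Cd74 in a class of over 100 cells is given, also at 3000 UMIs. It was 29.8%, 24.5% and 29.0% in libraries labelled Itgb7 KO and 17.9%, 1.55% and 10.9% in wild-type libraries, so how much of these shares is background was not tested.

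**Figure D3:**
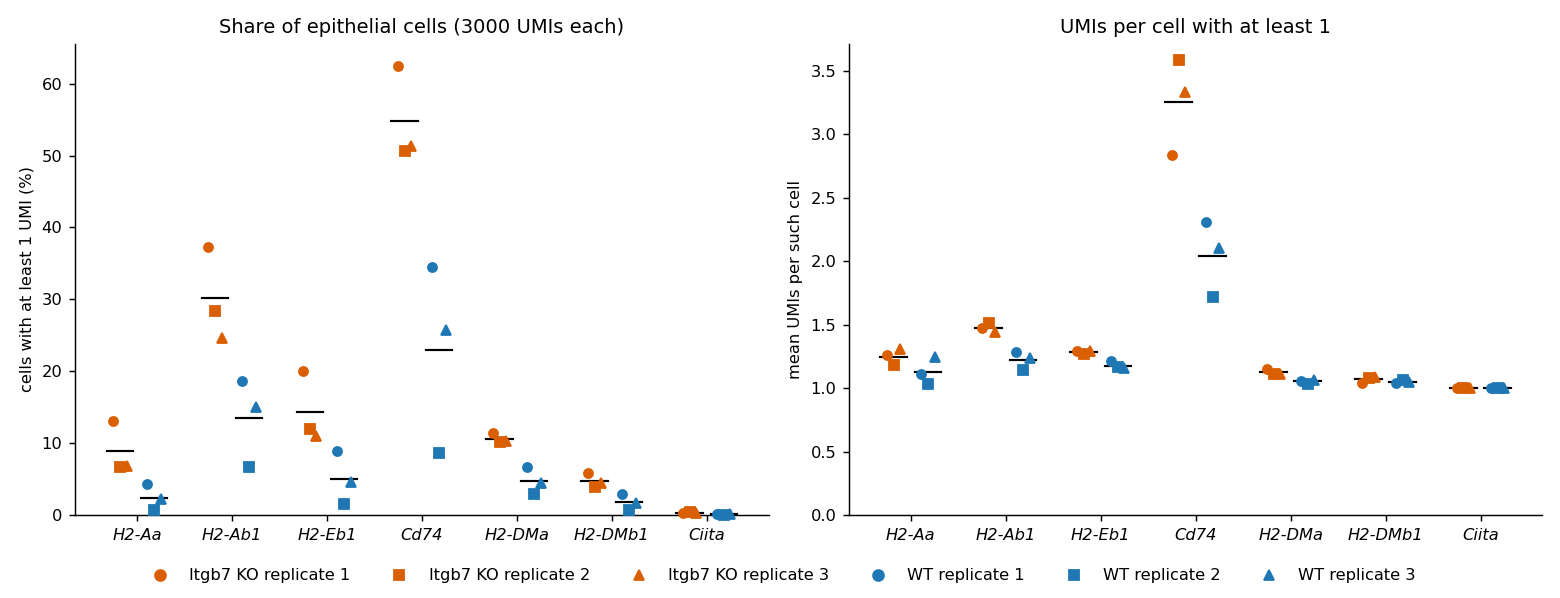
Left, share of epithelial cells with at least 1 UMI of a gene (vertical axis, percent, every cell thinned to 3000 UMIs) for 7 MHC class II genes. Right, mean UMIs in such cells. Points are libraries (orange, Itgb7 KO; blue, WT; marker shape, replicate) and black lines group means. For Cd74 the libraries labelled Itgb7 KO span 50.6% to 62.4% and the wild-type libraries 8.66% to 34.5%.

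Cells with several of the genes made up a higher mean share in libraries labelled Itgb7 KO in 5 of 6 classes, all but enteroendocrine-like cells. The difference was not tested. The count covered 6 of the genes, all but Ciita and H2-DMb2. At 3000 UMIs, cells with 3 or more of these made up 20.1%, 13.6% and 11.1% of epithelial cells in libraries labelled Itgb7 KO, against 7.12%, 0.812% and 3.47% in wild-type libraries. Cells with none made up 33.2% ± 8.54 in libraries labelled Itgb7 KO and 66.1% ± 15.7 in wild-type libraries (SD, n = 3 each). In stem-like cells, 30.6% ± 12.6 held 3 or more in libraries labelled Itgb7 KO, against 11.5% ± 7.86 in wild-type libraries. In lower-villus enterocyte-like cells it was 17.7% ± 3.70 against 3.88% ± 3.41, in mature enterocyte-like cells 6.51% ± 5.15 against 1.0002% ± 1.12 and in goblet-like cells 4.32% ± 2.167 against 0.723% ± 0.627, libraries labelled Itgb7 KO against wild-type. Enteroendocrine-like cells went the other way, with 4.14% ± 3.98 in libraries labelled Itgb7 KO and 4.87% ± 7.36 in wild-type libraries, a difference smaller than the spread. By library it was 8.70%, 1.32% and 2.41% in libraries labelled Itgb7 KO, against 13.3%, 0% and 1.27% in wild-type libraries. The wild-type mean thus rested on replicate 1, with 30 such cells. Thinning left out 74 of 157 such cells in replicate 3 labelled Itgb7 KO.

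**Figure D4:**
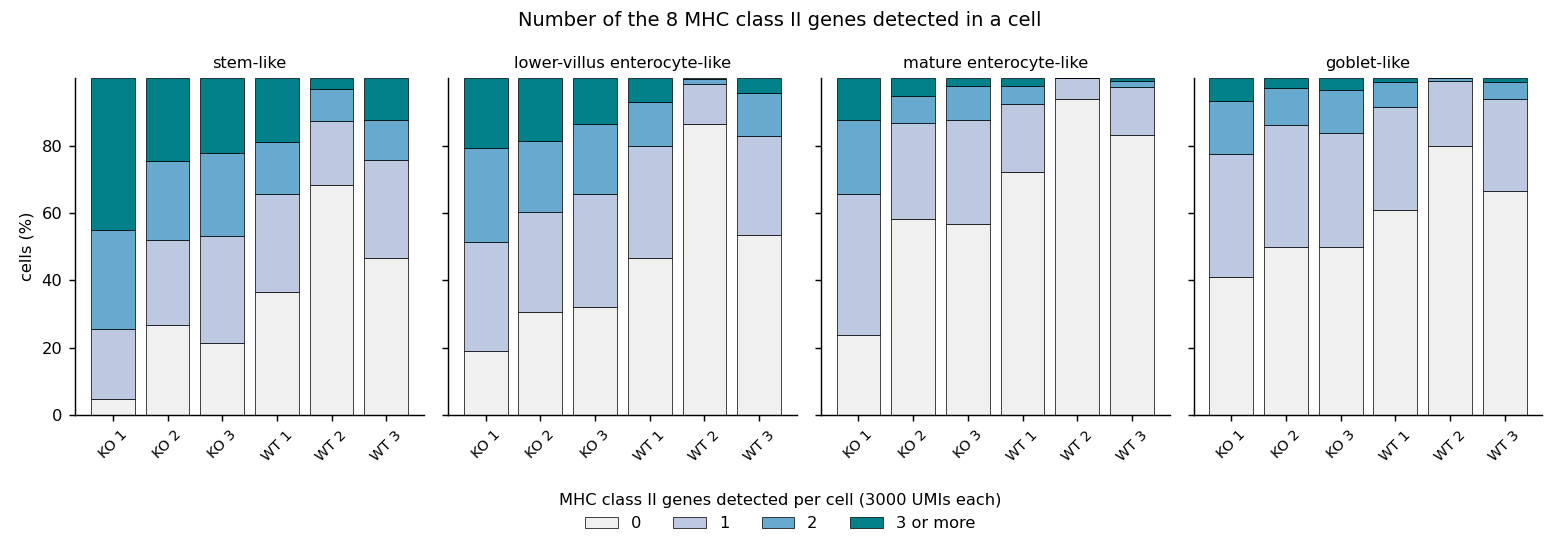
Share of cells (vertical axis, percent) in which 0, 1, 2 or 3 or more of the MHC class II genes were detected, per library in 4 classes. Every cell was thinned to 3000 UMIs (KO, Itgb7 KO, and WT, wild-type). Ciita and H2-DMb2 were not counted, although the heading in the picture says 8 genes. In stem-like cells the part with 3 or more genes averages 30.6% in libraries labelled Itgb7 KO and 11.5% in wild-type libraries.

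Over the pooled libraries, pairs of the genes were found in the same cell more often than independent detection within each library and class gives. The number of cells with both transcripts was divided by the number that independent detection within each library and class gives, as a description with no p. H2-Aa and H2-Ab1, the chains of 1 dimer, were found together in 693 cells where 372 were expected, a ratio of 1.86. H2-Ab1 and Cd74 were found together in 3343 cells against 2408 expected, a ratio of 1.39, and H2-DMa and H2-DMb1 in 138 against 69.6, a ratio of 1.98. All 17 pairs with a ratio over the pooled libraries lay above 1, from 1.34 for Ciita with Cd74 to 2.42 for H2-Aa with H2-DMb1. The ratio cannot exceed 1 over the larger share, so abundant pairs are bound to low ratios.

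For 9 of the 17 pairs the ratio was lower in every library labelled Itgb7 KO, where shares were higher, than in every wild-type library. For H2-Aa and H2-Ab1 they were 1.31, 2.13 and 2.11 in libraries labelled Itgb7 KO, against 2.37, 4.44 and 2.54 in wild-type libraries (exact 2-sided permutation test, p = 0.1, adjusted 0.189 over 17 pairs). For H2-Ab1 and Cd74 they were 1.15, 1.43 and 1.35 in libraries labelled Itgb7 KO, against 1.53, 2.75 and 1.79 in wild-type libraries, at the same p-values. The groups did not overlap in either pair. Ciita and H2-Ab1 were found together in 23 cells against 15.6 expected, a ratio of 1.47 over the pooled libraries, with 0 such cells in wild-type replicate 2, where 0.0482 were expected, and so with no usable difference between genotypes. Among stem-like cells with an H2-Ab1 UMI, 92.7%, 89.6% and 88.6% also held Cd74 in libraries labelled Itgb7 KO and 76.8% and 84.6% in wild-type replicates 1 and 3, with 33 of 50 such cells in wild-type replicate 2. Among stem-like cells without one, 84.2%, 49.2% and 60.5% held Cd74 in libraries labelled Itgb7 KO and 45.9%, 20.5% and 36.7% in wild-type libraries. In all 6 libraries Cd74 was the more frequent in stem-like cells with H2-Ab1. Over 6 libraries by 6 classes, 36 in all, cells with H2-Ab1 had the higher share of Cd74 in 33, of H2-Eb1 in 31 and of H2-Aa in 29. The exceptions for Cd74 were all in wild-type replicate 2, at 2.59% of goblet-like cells with H2-Ab1 and 4.24% of those without it, and at 0 of 9 mature enterocyte-like and 0 of 6 enteroendocrine-like cells with H2-Ab1. In goblet-like cells H2-Eb1 was also the less frequent with H2-Ab1 in wild-type replicates 1 (1.56% with it, 3.78% without it) and 3 (1.66% with it, 2.49% without it).

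**Figure D5:**
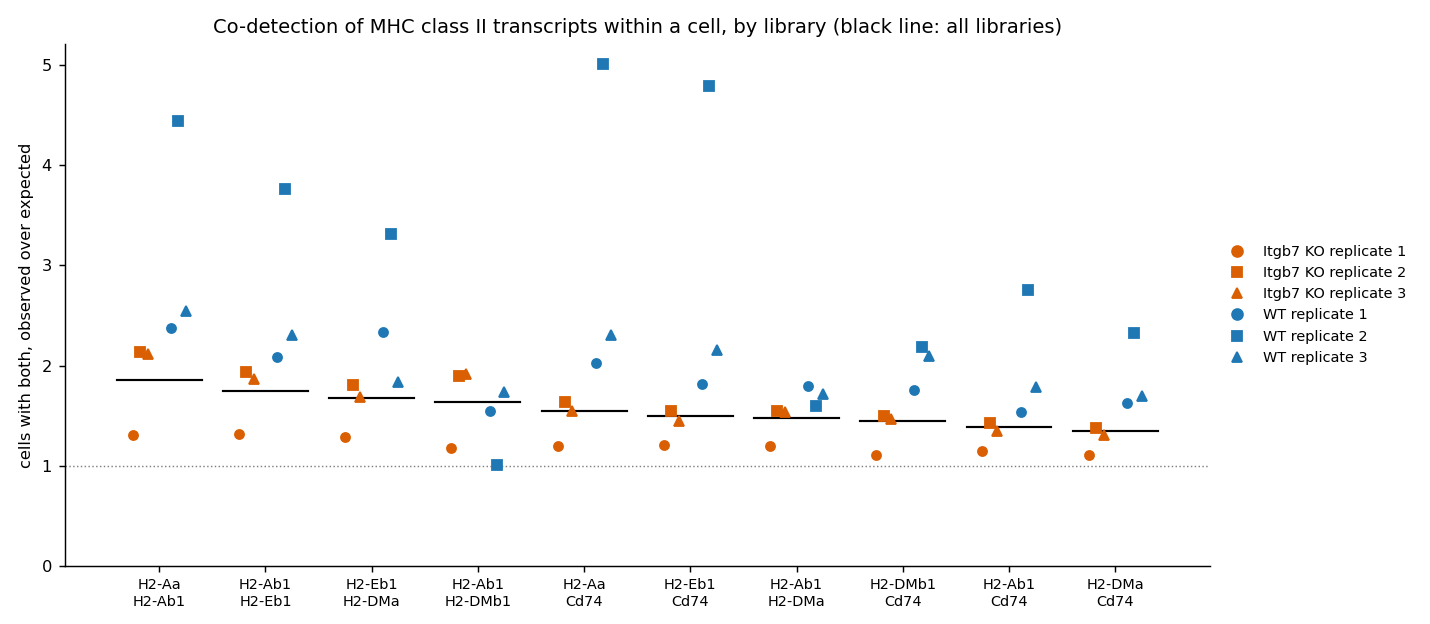
Observed over expected number of cells with both transcripts (vertical axis, ratio) for the 10 pairs of MHC class II genes with at least 2 expected cells in every library. Points are libraries (orange, Itgb7 KO; blue, WT; marker shape, replicate), black lines the ratio over all libraries and the dotted line 1. For H2-Ab1 and Cd74 the libraries labelled Itgb7 KO lie between 1.15 and 1.43 and the wild-type libraries between 1.53 and 2.75.

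Across 36 sums, 6 libraries by 6 classes, the members moved together. Pearson's r of log2 CPM was 0.99 between H2-Aa and H2-Eb1, 0.94 between H2-Aa and Cd74 and 0.93 between H2-Ab1 and H2-DMb1, and the lowest among the 6 abundant members was 0.60, between H2-Ab1 and H2-DMa. These are descriptions over sums that share libraries, depth and classes. Of 5299 other genes ranked by their likeness to the mean of the members, Cyba, a subunit of the phagocyte-type NADPH oxidase, was first with r = 0.84. It stood at 182, 139 and 158 CPM in libraries labelled Itgb7 KO, against 158, 113 and 114 CPM in wild-type libraries. Psmb8, an immunoproteasome subunit, had r = 0.61, while Irf1 had 0.27 and Jak1 -0.53.

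Other class II genes were hardly seen. H2-Ob and H2-Eb2 had 0 UMIs in epithelial cells, and H2-Oa, whose product restrains H2-DM, had 2 UMIs each in wild-type replicates 1 and 2 and none elsewhere. Genes that control class II transcription had a smaller median fold change than the members. Of the 16, all tested, 13 had a positive fold change, against 48.7% of all genes. Of these 16, 3 were higher in every library labelled Itgb7 KO (2.57% of all genes were). edgeR and DESeq2 called 0, 1 had an unadjusted p under 0.05 in edgeR and the median log2 fold change was 0.16, against -0.01 over all genes. Rfx5, a subunit of the X-box complex, stood at 3.66, 5.47 and 6.15 CPM in libraries labelled Itgb7 KO, against 3.75, 5.94 and 4.94 CPM in wild-type libraries, and overlapped, with a log2 fold change of 0.03 ± 0.20. Nlrc5, the co-activator of class I genes, had 52, 13 and 13 UMIs in libraries labelled Itgb7 KO, against 11, 0 and 14 in wild-type libraries. These counts are not scaled to depth. Epithelial cells held 26500711 UMIs in replicate 3 labelled Itgb7 KO and 59503211 in wild-type replicate 3. Relative to such totals, Nlrc5 was higher in every library labelled Itgb7 KO than in every wild-type library, on few UMIs.

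Interferon-gamma response genes were higher in part. Of 22 genes listed, 18 could be tested and 15 had a positive fold change (48.7% of all genes did). Of the tested genes, 10 were higher in every library labelled Itgb7 KO (2.57% of all genes were), and the median log2 fold change was 0.79. edgeR called 0, with 8 at an unadjusted p under 0.05 (412 of all 13550 genes). DESeq2 called Iigp1, Psmb8 and Psmb9, 3 of the list, and 27 of all genes. Psmb8 stood at 253, 245 and 238 CPM in libraries labelled Itgb7 KO, against 126, 108 and 138 CPM in wild-type libraries, with a log2 fold change of 0.95 ± 0.17 (edgeR, adjusted p = 0.817). The libraries of each genotype lay close together and far from those of the other. Psmb9, its partner in the immunoproteasome, stood at 129, 141 and 141 CPM in libraries labelled Itgb7 KO, against 81.0, 91.0 and 105 CPM in wild-type libraries. Tap1, of the peptide transporter for class I, stood at 39.0, 27.7 and 24.0 CPM in libraries labelled Itgb7 KO, against 15.5, 15.2 and 20.7 CPM in wild-type libraries. Igtp and Iigp1, interferon-induced GTPases, had log2 fold changes of 1.70 ± 0.56 and 2.88 ± 0.59. Cxcl10, a chemokine of the same list, had -0.62 ± 0.40, with 1.26, 0.930 and 0.566 CPM in libraries labelled Itgb7 KO and 0.805, 2.04 and 1.597 CPM in wild-type libraries.

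Genes of endosomal processing and of costimulation had small median fold changes in all epithelial cells. Of 12 endosomal genes 10 were tested, 5 had a positive fold change, edgeR and DESeq2 called 0 and 0 had an unadjusted p under 0.05 in edgeR, with a median log2 fold change of -0.02. Ctss, the protease that trims the invariant chain, stood at 48.0, 51.9 and 45.3 CPM in libraries labelled Itgb7 KO, against 43.3, 40.5 and 40.2 CPM in wild-type libraries, a log2 fold change of 0.19 ± 0.14. It was the 1 tested endosomal gene that was higher in every library labelled Itgb7 KO (2.57% of all genes were). Among 10 genes of costimulation and checkpoints, Cd86 had 0 UMIs, Cd80 had 1 and Cd40 had 8, 5 and 4 in libraries labelled Itgb7 KO and 6, 7 and 2 in wild-type libraries. Of the 6 tested, 5 had a positive fold change (48.7% of all genes did) and 1 was higher in every library labelled Itgb7 KO (2.57% of all genes were). Of these genes, 0 were called by edgeR or DESeq2 or had an unadjusted p under 0.05 in edgeR. Their median log2 fold change was 0.17. Genes of the microbe-induced list overlapped in sum, at 3452, 3156 and 5375 CPM in libraries labelled Itgb7 KO and 7474, 1711 and 2196 CPM in wild-type libraries. Markers of the proximal intestine summed to 1824, 4250 and 2854 CPM in libraries labelled Itgb7 KO and 1826, 2512 and 1902 CPM in wild-type libraries, and those of the distal intestine to 3214, 2493 and 2416 CPM in libraries labelled Itgb7 KO and 3449, 2892 and 3174 CPM in wild-type libraries. Both overlapped (exact 2-sided permutation tests, p = 0.4 and 0.3), and their part in the differences above was not tested.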

How the data were processed

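Single-cell RNA of small-intestinal epithelium was counted with the Chromium Single Cell 3′ version 2 kit. The authors deposited raw counts, whole numbers of UMIs for each barcode and gene, with no normalization. The submitters' processing notes name the build mm10 and the tools Cell Ranger 2.1.1, bcl2fastq 2.17.1.14 and Seurat, the last without a version. Lower limits on UMIs per barcode differed between the libraries as deposited, from 1417 to 13621.

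Limits for a barcode were 500 genes, 1000 UMIs and 25% mitochondrial UMIs. Scrublet's automatic threshold marked 93 barcodes (0.357%), so the highest-scoring 0.8% per 1000 barcodes were removed instead, 969 in all, which left 25076 (95.9%). Cells were scaled to 10000 UMIs and clustered with scanpy 1.11.5 (2000 variable genes without the MHC class II genes, 30 components, an own correction of the Harmony type for library, 15 neighbours, Leiden resolution 1.5). Clusters were named X-like from marker lists, and rebuilt names may differ from the study's. UMIs were summed per library and class with at least 20 cells in each library and tested with edgeR 4.0.16 (R 4.3.3, quasi-likelihood, TMM, filterByExpr, genotype only, Benjamini-Hochberg at 0.05 over all genes tested), with DESeq2 1.42.0 as an alternative. The scripts were tested on simulated data. There edgeR recovered 59% of 2-fold changes in stem-like sums and 51% in sums of all epithelial cells. For 4-fold changes it was 100% and 97%, with 15 and 6 false calls. The simulated counts took the fitted spread of each gene, and only genes with higher counts were changed. These rates are therefore not the power for the members. In all epithelial cells the own spread of Cd74 (deviance per residual degree of freedom) was 4.81, above the 2.67 that the fit used. Shares were taken after thinning to 3000 UMIs and tested with exact 2-sided permutation tests over libraries (scipy 1.17.1), whose smallest p for 3 against 3 is 0.1. Positions came from GENCODE M21, which holds 27645 of the 27998 identifiers. Genes named are the 8 members, Itgb7, the pathway lists and the 8 genes most like the members' mean among those of at least 20 CPM. The members and lists were chosen with earlier results of these data known. H2-Ea-ps had no matching symbol and was not analysed here.

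Replicate numbers came from the titles. Deviations from the group means of same-numbered libraries correlated at r = 0.66, 0.29 and 0.27 over 13385 genes. Replicate 3 labelled Itgb7 KO correlated more with wild-type replicate 2 (0.48), so pairs were not clear beyond replicate 1. The main tests did not pair the libraries, and the replicate number was a block in an alternative only. With that block, edgeR in all epithelial cells gave H2-Aa 2.23 ± 0.36 (log2, SE) at an adjusted p of 0.291. This was the lowest among the members, and the highest was 0.649 for Ciita, at 1.02 ± 0.41.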

Additional observations from a re-analysis of the deposited data

Results flagged for a closer look

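MHC class II transcripts were also seen in the 484 cells that stayed unnamed and entered none of the comparisons. These cells were led by mitochondrial genes, at a median of 13.9% mitochondrial UMIs. Cd74 averaged 844 CPM and H2-Ab1 178 CPM there in libraries labelled Itgb7 KO, above the wild-type means of 298 CPM for Cd74 and 66.4 CPM for H2-Ab1. By library Cd74 stood at 889, 912 and 731 CPM in libraries labelled Itgb7 KO, against 538, 102 and 254 CPM in wild-type libraries, and the groups did not overlap.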

How the results depend on the processing

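Over 17 settings beside the main one, 703 recomputed fold changes of the members kept their sign and 1 turned, and in no setting was a member called in a class. The one that turned was H2-Eb1 in enteroendocrine-like cells, which gave -0.020 without replicate 1 labelled Itgb7 KO (range on leaving out a library -0.020 to 3.64). The replicate block changed no call of a member. Genes called over the whole table were few and moved. DESeq2 called 11 in transit-amplifying-like (edgeR 0), 17 in lower-villus enterocyte-like (edgeR 1), 13 in goblet-like (edgeR 1) and 27 over all epithelial classes (edgeR 1). With no filter on low counts these were 3, 3, 3 and 2. The replicate block gave 1 in transit-amplifying-like, 2 in lower-villus, 1 in enteroendocrine-like (edgeR without it 0) and 3 over all classes. A block for serial group gave 2 in transit-amplifying-like, 2 in goblet-like and 4 over all epithelial classes, and cells of at least 6000 UMIs gave 1 in transit-amplifying-like cells. On leaving out 1 library, counts ranged from 0 to 2 in stem-like, 0 to 1 in lower-villus, 0 to 3 in goblet-like and 0 to 3 over all epithelial classes, highest without replicate 1 labelled Itgb7 KO in stem-like cells and without wild-type replicate 3 in the last 2. The stem-like minus mature effect passed the threshold for Cd74 with at least 6000 UMIs (-1.51). With no filter it was under the threshold for Cd74 (-1.24) and H2-Ab1 (-0.71, adjusted p = 0.00254 in edgeR), but edgeR's prior degrees of freedom were infinite in that fit, so every gene took the spread of the trend in place of its own and neither value is read as a call. With a robust spread, added after seeing the data, Cd74 had an adjusted p of 0.991 with the filter and 1 without, and H2-Ab1 of 0.827 with it and 0.000474 without it (-0.71), where the prior was again infinite for most genes. The fits within single classes had finite priors in every setting. For H2-DMa it turned to 0.18 with doublets kept and to 0.023 with no correction for library. The difference in co-detection of Ciita and H2-Ab1 between genotypes was 0.02 and turned to -0.18 with at least 6000 UMIs, -0.17 without cells carrying leukocyte markers, -1.95 and -1.07 at 1000 and 6000 UMIs and -0.71 unthinned, and ranged from -0.64 to 0.65 on leaving out 1 library, lowest without wild-type replicate 2 and highest without wild-type replicate 1. The cause of these changes was not tested. Enteroendocrine-like cells gave no value with at least 6000 UMIs or without cells carrying leukocyte markers, since fewer than 20 cells were left in a library. Low counts limit Ciita and H2-DMb2.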
